A study of Mus musculus with 2 samples.

Results

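The smooth muscle contractile apparatus was followed here through 10 genes, chosen by symbol from a table of 22740 genes: Acta2, Actg2, Myh11, Myl9, Mylk, Tagln, Cnn1, Smtn, Des and Lmod1. All 10 were in the table, and all passed 1 RPKM in both libraries, as did 58.4% of all genes. RNA was sequenced from the whole uterus of 2 C57BL/6 mice, titled WT, on day 4 of pregnancy, with 1 library per animal. There is 1 group, with no treatment and no genotype contrast, and the age of the mice is not given in the sources used here. Values are the authors' RPKM (reads per kilobase of transcript, scaled to the library's total). The totals behind that scaling, recovered from the values, were 3834174 for uterus 1 and 4256101 for uterus 2. The libraries are called uterus 1 and uterus 2, and errors are SD over both (n = 2). With no second group there is no test, so each difference is set beside the spread between the uteri.

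Smooth muscle shortens when filaments of myosin pull on filaments of actin. Calcium bound to calmodulin activates myosin light chain kinase, which phosphorylates the regulatory light chain of myosin and switches the motor on; a phosphatase reverses this, and the Rock kinases restrain the phosphatase. The uterus carries this machinery in the myometrium, the muscular wall that contracts at birth. The walls of uterine arteries use much of the same machinery. Transcription of many of these genes is driven by serum response factor with its partner myocardin, through a short promoter motif, the CArG box.

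The sequences shown first are the 2 promoters of these genes that carry that motif (Myl9) or a near form of it (Acta2 and Myl9). RefSeq promoters (build GRCm38.p6, 250 bases before to 50 after the start) were matched for 7 of the 10 genes. Actg2, Myh11 and Tagln were not matched. The CArG box is a run of 10 bases that opens with 2 C, holds a core of 6 bases that are all A or T, and ends with 2 G, so it reads alike on both strands. A like motif with 1 G or C in the core was searched as well, and the 2 kinds cannot coincide. Capitals mark both kinds of match:
Acta2, chr19:34255324-34255623, minus strand: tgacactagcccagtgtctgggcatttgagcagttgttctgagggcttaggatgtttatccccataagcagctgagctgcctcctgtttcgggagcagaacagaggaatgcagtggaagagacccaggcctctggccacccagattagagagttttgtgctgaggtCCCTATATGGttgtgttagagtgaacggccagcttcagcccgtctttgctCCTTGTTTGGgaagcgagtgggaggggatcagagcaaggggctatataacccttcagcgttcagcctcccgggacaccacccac
Myl9, chr2:156775214-156775513, plus strand: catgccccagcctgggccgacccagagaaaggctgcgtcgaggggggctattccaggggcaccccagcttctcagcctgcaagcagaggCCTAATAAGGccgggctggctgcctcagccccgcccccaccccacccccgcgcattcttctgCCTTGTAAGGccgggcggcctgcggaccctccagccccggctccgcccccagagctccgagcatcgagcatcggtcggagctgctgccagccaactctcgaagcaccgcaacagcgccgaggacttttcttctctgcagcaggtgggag

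Myl9 held the only full CArG box among the 7 promoters, CCTAATAAGG, which begins 161 bases before the start. It also held a like motif, CCTTGTAAGG, 99 bases before it. Acta2 held 2 like motifs, CCCTATATGG and CCTTGTTTGG, at 84 and 34 bases before the start. All distances are from the annotated start, and in Acta2 the letters TATATAA lie 8 bases after it. Whether transcription begins at that start in the uterus was not tested. Over all 32851 promoters of the table, 1.63% held a full box and 8.5% a like motif. Des, Lmod1, Cnn1, Smtn and Mylk held neither in this window. These matches describe letters only.

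The 10 genes kept one order of level in both uteri, from Acta2 at the top to Lmod1 at the bottom, a 31.2-fold range of means. Of the 10, 8 lay at 100 RPKM or more in both uteri, a level reached by 1.92% of all genes. A level of 200 RPKM was reached in each uterus by 6 of the 10, against 0.831% of all genes. Their median was 249.6 ± 0.421 RPKM, and together they held 0.633% ± 0.00207 of the summed RPKM. In whole tissue, more muscle cells and more RNA per muscle cell cannot be told apart.

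**Figure D1:**
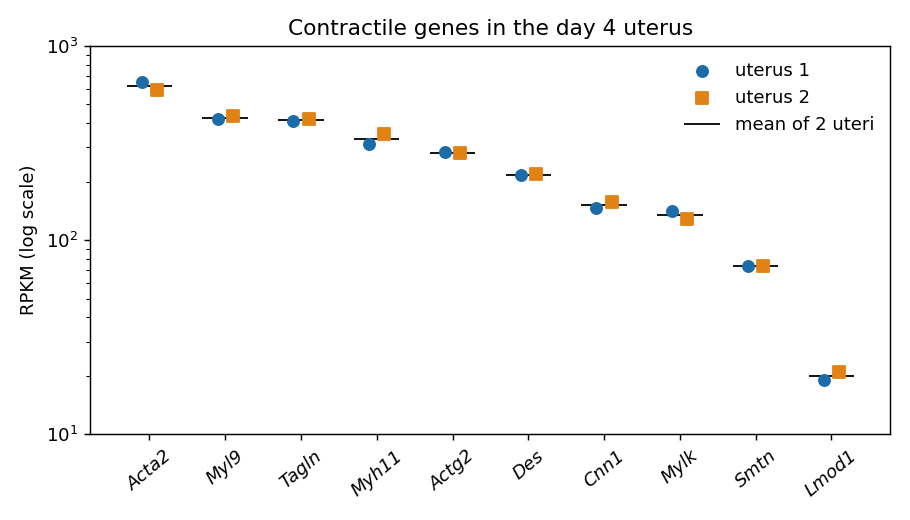
RPKM of each contractile gene on a log axis, with uterus 1 as circles, uterus 2 as squares and a bar at the mean of both. The order from Acta2 to Lmod1 is the same in both uteri, and the symbols of a gene lie close together at every level.

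The thin filament is built from actin. Acta2, which encodes smooth muscle alpha-actin, was the highest of the 10 at 653 RPKM in uterus 1 and 592 in uterus 2 (622 ± 43.0). It ranked 87 of 22740 genes by mean. The gene (NM_007392) lies on chromosome 19, 34314826 to 34329863, minus strand, of mouse build mm9 (NCBIM37), and its matched GENCODE transcript has 9 exons. Actg2, the gamma smooth muscle actin typical of visceral organs, lay at 284 and 279.8 RPKM (282 ± 2.70; NM_009610, chromosome 6, 83462903 to 83486245). Acta2 was above Actg2 in both uteri, 2.30-fold in uterus 1 and 2.12-fold in uterus 2.

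The motor of the thick filament is a pair of heavy chains with their light chains. Myh11, the smooth muscle myosin heavy chain, lay at 314 RPKM in uterus 1 and 350.1 in uterus 2 (332 ± 25.8; NM_013607, chromosome 16, 14194620 to 14291501, 42 exons). It rested on the most reads of the 10, 7977 and 9883. Myl9, the regulatory light chain that is phosphorylated to start contraction, lay at 419 and 434 RPKM (427 ± 10.7; NM_172118, chromosome 2, 156601200 to 156607393). Per length, Myl9 transcripts exceeded Myh11 transcripts 1.34-fold and 1.24-fold. The 2 smooth muscle actins together exceeded Myh11 by 2.98-fold in uterus 1 and 2.49-fold in uterus 2.

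Mylk encodes the kinase that phosphorylates Myl9 protein. It lay at 141 and 129 RPKM (135 ± 8.42; NM_139300, chromosome 16, 34785036 to 35002520), below its substrate in both uteri: Myl9 was 2.98-fold and 3.37-fold higher. The annotation places 3 coding transcripts at the Mylk locus, of 7824, 3966 and 1466 bases, and the gene's single RPKM value does not separate them. The Mylk level and these folds rest on a length of 7809 bases. Mylk and Myh11 lie on the same chromosome, as do Tagln and Cnn1 on chromosome 9, and Des and Lmod1 on chromosome 1.

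Among actin-binding regulators, Tagln (transgelin, or SM22-alpha, which coats actin filaments) was highest at 413 and 419 RPKM (416 ± 4.26; NM_011526, chromosome 9, 45737711 to 45744141). Cnn1 (calponin 1, which slows the myosin motor on actin) lay at 146 and 158 RPKM (152 ± 8.44; NM_009922, chromosome 9, 21903697 to 21913665). Tagln exceeded Cnn1 by 2.84-fold and 2.66-fold. Smtn (smoothelin, an actin-binding protein of contractile smooth muscle) lay at 73.3 and 73.9 RPKM (73.6 ± 0.453; NM_013870, chromosome 11, 3417525 to 3439295).

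Lmod1 (leiomodin 1, which starts new actin filaments in smooth muscle) was the lowest at 18.9 and 21.0 RPKM (19.95 ± 1.46; NM_053106, chromosome 1, 137221390 to 137264642). It rested on 286 and 352 reads and ranked 3881. Smtn, the next gene up, was 3.69-fold higher by mean. Des encodes desmin, the intermediate filament that ties the contractile units of muscle cells together. It lay at 216 and 219 RPKM (217 ± 1.86; NM_010043, chromosome 1, 75356919 to 75364290).

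Most steps in the order were larger than the spread between the uteri. The gap between neighbours was under 2 pooled SD in 2 of the 9 pairs. Myl9 and Tagln differed by 10.6 RPKM, or 1.31 pooled SD, and the lower Myl9 value nearly met the higher Tagln value. Cnn1 and Mylk differed by 16.7 RPKM, or 1.99 pooled SD. With 2 libraries an SD is itself poorly known.

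**Figure D2:**
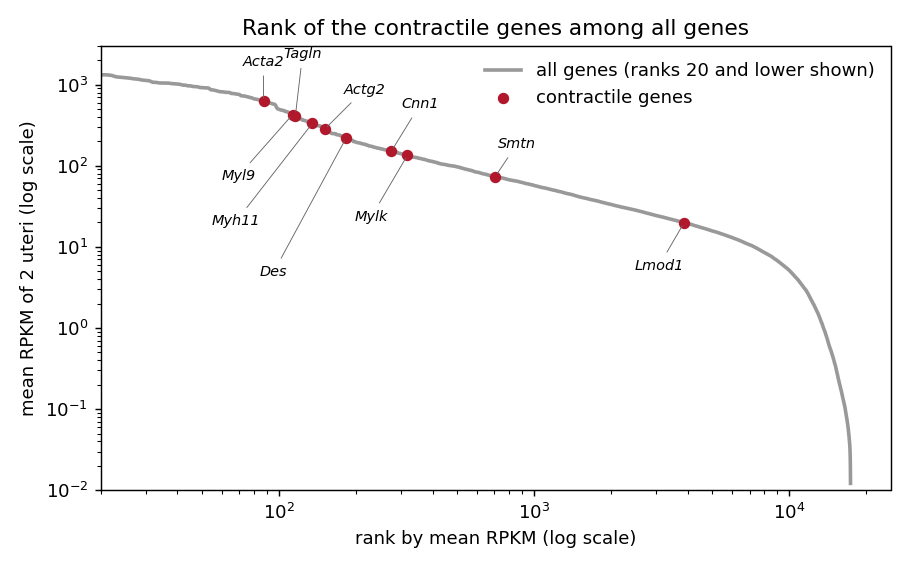
Mean RPKM of all genes against their rank, both on log axes, from rank 20 downward, with the contractile genes as red points. From Acta2 at rank 87 to Mylk at rank 319, 8 of the 10 genes lie near the upper end of the curve, and Lmod1 at rank 3881 stands well below the others.

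The length behind an RPKM value sets its level, and for 5 genes the matched GENCODE length moved the mean by more than its SD. For Mylk only the transcript of 7824 bases was tried, so the effect of its shorter coding transcripts was not tested. The authors' lengths could be recovered for all 10 genes, and each equals a GENCODE transcript once that transcript's ends are moved to the deposited ends. For Acta2 the length was 2572 bases against 1781 in GENCODE, because the deposited gene runs 754 bases further at its 3′ end and 37 at its 5′ end. For Des it was 2149 against 3028, and for Cnn1 1987 against 2368. With the GENCODE lengths and the same reads, chosen as an alternative after seeing the data, Acta2 would stand at 899 RPKM, Des at 154 and Cnn1 at 127. Myl9 would move less, to 409.6 RPKM, and Actg2 to 278. The ratio of Acta2 to Actg2 would then be 3.23 in place of 2.21 ± 0.131, and by mean Tagln would pass Myl9 and Mylk would pass Cnn1. Mylk would then lie above Cnn1 in uterus 1 (140.5 against 122 RPKM) and below it in uterus 2 (129 against 132), so the uteri would no longer share one order.

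Each contractile gene has relatives that make the same kind of protein in other cells. The coding starts of 4 actins are shown to make visible how alike members of a family are at the level of bases. Each line gives the first 60 coding bases, all within exon 2 of the GENCODE transcript on build NCBIM37. Capitals mark bases that differ from Acta2 in a pairwise alignment, in which the shorter coding sequences of Actg2 and Actb have gaps that are not drawn:
Acta2, chr19:34326984-34327043, minus strand: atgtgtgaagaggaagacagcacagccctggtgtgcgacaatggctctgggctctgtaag
Actg2, chr6:83477376-83477435, minus strand: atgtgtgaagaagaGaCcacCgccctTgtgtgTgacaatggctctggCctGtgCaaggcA
Acta1, chr8:126417538-126417597, minus strand: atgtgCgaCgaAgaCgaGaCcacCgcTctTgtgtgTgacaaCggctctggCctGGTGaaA
Actb, chr5:143667306-143667365, minus strand: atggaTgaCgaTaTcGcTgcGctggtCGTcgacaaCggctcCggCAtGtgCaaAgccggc

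Over the whole coding sequence, Acta2 matched Actg2 at 84.4% of aligned bases, Acta1 at 85.4% and Actb at 83.2%. Myl9 matched Myl12b at 86.3%. Despite this, few stretches were identical over a read's length. Of the 1732 windows of 50 bases in the Acta2 transcript, 7 (0.404%) also occurred in a coding transcript of another gene, all in Actg1. None of the 1284 windows of Actg2 did. The share was 0.395% for Myh11 (with Myh9 and Myh10), 1.04% for Tagln (with Pcsk7), and 0 for Myl9, Mylk, Cnn1, Smtn, Des and Lmod1.

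Beside its smooth muscle actins the uterus held more transcript of the cytoplasmic actins found in every cell. Actb lay at 2091 and 1930.4 RPKM and Actg1 at 910 and 790.1. Together they exceeded Acta2 plus Actg2 by 3.20-fold and 3.12-fold. The order of Actg1 over Acta2 depends on length: at its GENCODE length Acta2 would lie above Actg1, at 942 and 855 RPKM. Of the summed RPKM of 6 actin genes, Acta2 and Actg2 held 23.5% ± 0.252. The cytoplasmic pair held 74.3% ± 0.590.

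Myosin showed the opposite balance. Myh11 exceeded the non-muscle heavy chains Myh9 (146 and 126 RPKM) and Myh10 (39.9 and 38.1 RPKM) as a sum, by 1.69-fold in uterus 1 and 2.13-fold in uterus 2. It held 65.1% ± 3.65 of the summed RPKM of 11 myosin heavy chain genes. Likewise Myl9 held 67.9% ± 0.229 of 6 regulatory light chain genes. The non-muscle light chains Myl12a (93.2 and 83.2 RPKM) and Myl12b (103 and 123 RPKM) made up nearly all the rest.

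The other families were mixed. Tagln exceeded its broadly expressed relative Tagln2 (102 and 97.6 RPKM) by 4.06-fold and 4.29-fold. Cnn1 was above Cnn2 (79.5 and 78.1 RPKM), by 1.83-fold and 2.02-fold, but below Cnn3 (238 and 262 RPKM), which was 1.63-fold and 1.67-fold higher than Cnn1. Vim, the intermediate filament of stromal and endothelial cells, lay at 447 and 522 RPKM, 2.07-fold and 2.38-fold above Des.

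Counterparts from other tissues, mostly skeletal and heart muscle, were near 0 except for Acta1 and, far below it, Smtnl2. Of 20 such genes, which include the neuronal Tagln3, 2 reached 1 RPKM in both uteri and 6 were listed at 0 in both, among them Myh2, Myh6 and Myl2. Acta1, the skeletal muscle actin, lay at 78.4 and 89.4 RPKM on 472 and 598 reads. Smtnl2 was next at 2.19 and 2.69 RPKM. Actc1, the cardiac actin, held 2 reads in each uterus, and Mylk2, Mylk3 and Mylk4 held at most 3.

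Acta1 shared none of its 1397 windows of 50 bases with Acta2 or Actg2, but 28 of them with Actb and 10 with Actg1. How many Acta1 reads came from these shared windows was not tested. Its RefSeq promoter held a full CArG box, CCAAATATGG, 73 bases before the annotated start, and 2 like motifs. Acta2 exceeded Acta1 by 8.33-fold in uterus 1 and 6.62-fold in uterus 2.

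**Figure D3:**
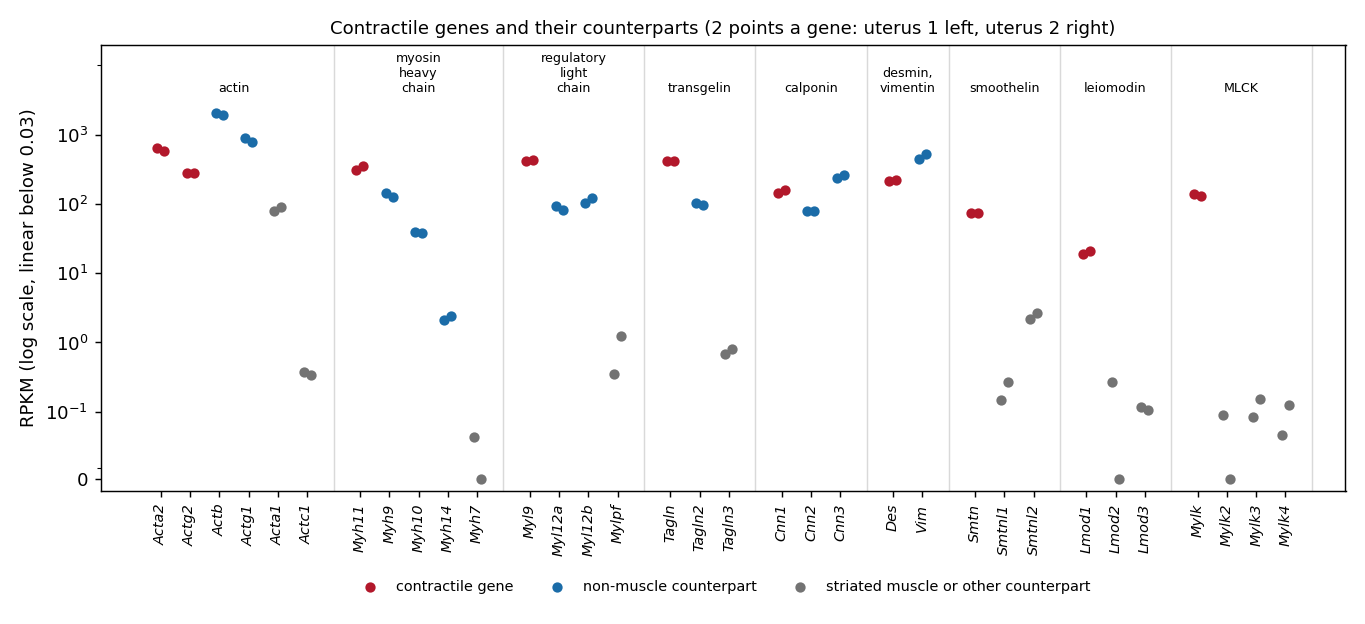
RPKM of the contractile genes (red), their non-muscle counterparts (blue) and their striated muscle or other counterparts (grey) by protein family, with uterus 1 left and uterus 2 right for each gene, on a log axis that is linear below 0.03. Actb and Actg1 lie above Acta2 and Actg2, Myh11 and Myl9 lie above their non-muscle counterparts, and Acta1 is the only grey gene near 100 RPKM.

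The rest of the contractile pathway was read from lists of genes named by role. Among 18 other filament and dense body genes, all 18 reached 1 RPKM in both uteri and 7 reached 100. Myl6, the essential light chain shared by smooth and non-muscle myosin, led at 1145 and 1086 RPKM. Flna (filamin A, an actin cross-linker) followed at 587 and 531 RPKM. The tropomyosins Tpm1 (321 and 358 RPKM) and Tpm2 (265 and 288 RPKM) lie along the actin filament. The Tpm1 value rests on a length of 3279 bases, against 904 in the matched GENCODE transcript, so it depends on that choice. Cald1 (caldesmon, a brake on the motor) lay at 123 and 119 RPKM. Itga8, an integrin subunit of smooth muscle, was lowest at 8.71 and 8.25 RPKM.

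The 18 genes that control light chain phosphorylation had a list median of 38.4 ± 1.31 RPKM, below the 72.2 ± 10.1 of the other filament and dense body genes. Single genes overlapped: Calm2, Rhoa and Calm3 had higher means than Cald1 and Mylk. Calm2 (242 and 256 RPKM) and Calm3 (141 and 144 RPKM) encode calmodulin, which carries the calcium signal to the kinase. The phosphatase was represented by its catalytic subunit Ppp1cb (93.98 and 91.9 RPKM) and its targeting subunit Ppp1r12a (82.5 and 102 RPKM). Its inhibitor Ppp1r14a (CPI-17) lay at 48.1 and 42.0 RPKM. Rhoa, the small GTPase that activates the Rock kinases, lay at 150.2 and 136 RPKM. The kinases Rock1 (25.2 and 28.6 RPKM) and Rock2 (29.98 and 31.3 RPKM) were lower. Prkca was lowest of the list at 3.99 and 4.18 RPKM.

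Transcription factors tied to smooth muscle genes were lower again, with a list median of 12.4 ± 1.05 RPKM over 16 genes. Srf, which binds the CArG box, lay at 30.5 and 29.0 RPKM. Myocd, its muscle partner, lay at 6.83 and 6.79 RPKM on 134 and 148 reads. The related coactivators Mkl2 (14.2 and 14.1 RPKM) and Mkl1 (8.37 and 6.42 RPKM) were of similar order, and Mef2a led the list at 46.7 and 46.8 RPKM. Nkx2-3 was listed at 0. Of 15 channels and receptors of the myometrium, 13 reached 1 RPKM in both uteri. The calcium pump Atp2a2 led at 71.0 and 70.4 RPKM, the L-type calcium channel Cacna1c lay at 21.3 and 20.01, and the oxytocin receptor Oxtr at 2.63 and 2.83. Of the genes of these 4 lists that reached a mean of 1 RPKM (18, 18, 14 and 13), none was at least 1.5-fold apart between the uteri, against 8.35% of all genes whose mean reached 1 RPKM and 2.02% of those whose mean reached 10.

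**Figure D4:**
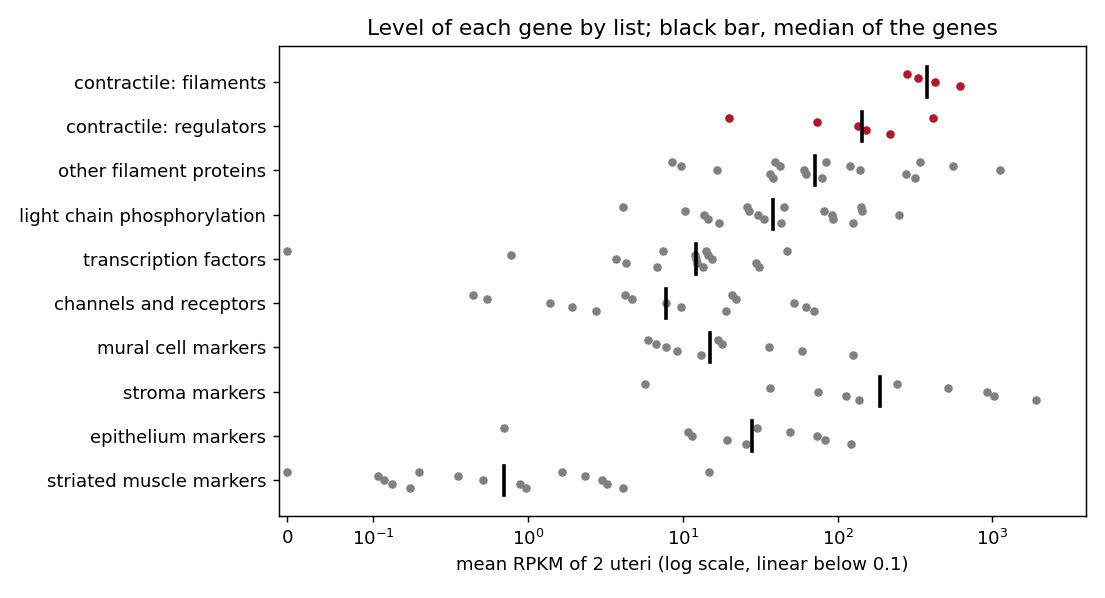
Mean RPKM over the uteri of each gene, by list, on a log axis that is linear below 0.1, with a black bar at the median of the genes. Most contractile genes (red) lie to the right of most genes of the light chain phosphorylation and transcription factor lists, and the striated muscle markers lie furthest left. Some other genes had higher means than every contractile gene, among them Myl6 and the stroma markers Col3a1, Col1a1 and Col1a2.

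The labelled tissue was checked against its markers and those of other cells. All 8 uterine genes reached 1 RPKM in both uteri, with Hoxa10 at 112 and 115 and Esr1 at 107 and 99.2. Foxa2, a gland marker, was the 1 gene of these that was at least 1.5-fold apart, at 3.07 and 5.19 RPKM on 25 and 47 reads. All 10 markers of pericytes and vascular mural cells reached 1 RPKM in both uteri too. Their summed levels were 316 and 281 RPKM against 2677 and 2675 for the contractile genes. Rgs5 led them at 128 and 124 RPKM, and Notch3 was the 1 gene of that list at least 1.5-fold apart, at 20.6 and 13.3 RPKM. Mural cells use Acta2, Myh11, Tagln and other contractile genes as well, and their part in the values was not tested. Of 16 striated muscle markers, 6 reached 1 RPKM in both uteri, the summed levels were 29.5 and 35.8 RPKM, and Mb was listed at 0. Stroma markers summed to 5135 and 4843 RPKM, epithelium markers to 413 and 437, endothelium markers to 269.7 and 263, and leukocyte markers to 97.8 and 105.

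The uteri differed little in these genes. None of the 10 was at least 1.5-fold apart. Among the 13647 genes whose mean reached 1 RPKM, 8.35% were that far apart. None of the 10 was 2-fold apart, against 2.6% of those genes. The 1.5-fold share was 2.02% of the 7311 genes whose mean reached 10 RPKM and 2.55% of the 470 whose mean reached 100. The fold between the higher and the lower uterus ran from 1.01 for Smtn to 1.12 for Myh11. Ratios are given as log2 of uterus 2 over uterus 1 after adding 0.1 RPKM. Their median over the 10 genes was 0.02 and their median absolute value 0.08, beside 0.13 for all genes whose mean reached 10 RPKM and 0.11 for those whose mean reached 100. Of the genes whose mean reached 10 RPKM, 87.5% lay within 1.25-fold, so close values are common.

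The counting interval of the ratio left out 0 for Myh11, Acta2 and Mylk, the genes with the most reads of the 10, so these calls follow depth as well as size. The log2 ratio was 0.16 for Myh11 (95% exact binomial interval 0.12 to 0.20), which was higher in uterus 2. Acta2, at -0.14 (-0.19 to -0.09), and Mylk, at -0.13 (-0.19 to -0.07), were lower in uterus 2. For Cnn1 the ratio was 0.11 (-0.0023 to 0.23) and for Lmod1 0.15 (-0.08 to 0.38). Intervals cover counting error only, since copies made by PCR are not independent molecules. Of the 10 genes, 7 had a ratio above 0, but only 4 when both libraries were set to the same sum over protein-coding identifiers, a scaling that moves every gene by -0.02 and so turned the sign of Tagln, Smtn and Des, whose ratios lay near 0.

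**Figure D5:**
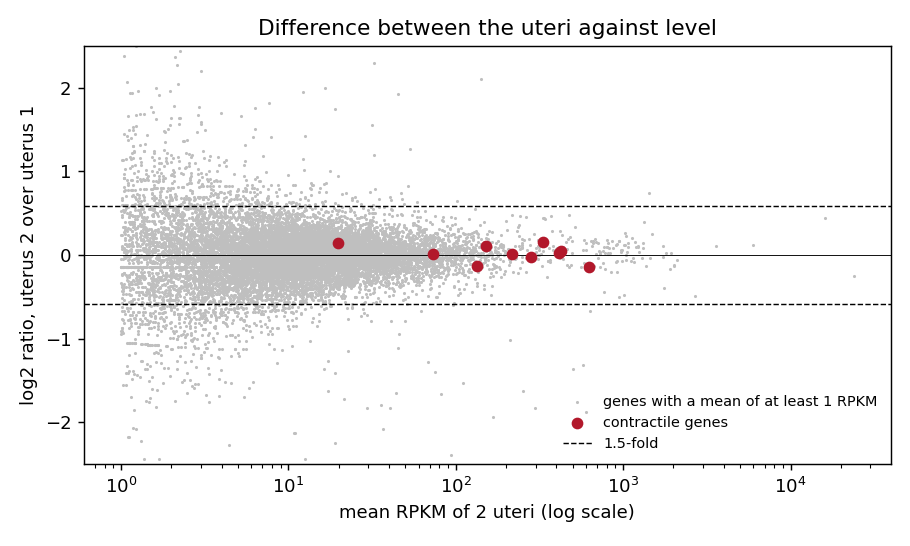
Log2 ratio of uterus 2 over uterus 1 against mean RPKM (log axis) for genes whose mean reached 1 RPKM (grey) and the contractile genes (red), with dashed lines at 1.5-fold. All red points lie between the dashed lines, from -0.14 to 0.16, and 38 grey genes beyond 2.5 on the vertical axis are not drawn.

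The 20 genes that flank the contractile genes on the chromosome had a median of means of 12.1 RPKM. None of them reached 100 RPKM in both uteri, a count near the 1.92% of all genes that did. Timm17a was the 1 flanking gene that did not lie below its contractile neighbour in both uteri, an order that the high levels of most of the 10 genes nearly fix. It lies beside Lmod1, at 27.9 and 29.2 RPKM. Selm, 170 bases from Smtn, came close to Smtn at 65.2 and 50.9 RPKM against 73.3 and 73.9. Stambpl1, whose end lies 7 bases from the 3′ end of Acta2 on the other strand, was at 3.30 and 3.56 RPKM.

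Use of strand in counting is not stated in the sources used here, so overlapping genes could not be told apart in full. Pcsk7 overlaps the end of Tagln by 95 bases on the other strand and lay at 10.4 and 11.4 RPKM. Within Mylk, 1700119H24Rik (4.01 and 2.41 RPKM) and E130310I04Rik (3.20 and 2.75 RPKM) lie on the other strand. The deposited spans of the other 8 genes overlap no other gene of the table.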

How the data were processed

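Per the series' design text, RNA from the whole uterus of 2 mice was extracted with TRIzol, selected for poly-A and sequenced on a HiSeq2500. The TruSeq kit was used, with 1 microgram of RNA per library, per the labels. The authors deposited RPKM values per gene and library. The submitters' processing notes name TopHat, edgeR and mm9, without versions or roles; annotation release, counting and strand are not given in the sources used here. The design text calls the mice independent, so the SD covers animals and preparation together.

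The main table (22740 genes) was used as deposited, and its values equal those of the annotated table. Reads behind the deposited RPKM were recovered: 1 read in a single-exon gene fixed the scaling totals at 3834174 (uterus 1) and 4256101 (uterus 2), and a member's reads and length are the whole numbers (tolerance 0.001 bases) nearest an annotated length. Deposited starts were read as counted from 0, since Tagln and Myh11 then match GENCODE M1 exactly. The 10 members held 28436 and 31790 reads. Read recovery and ratio calls were tested on simulated data.

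The members and gene lists were chosen with earlier results of these data known. Named genes were all members, their counterparts, the highest, median and lowest genes of each other list with up to 8 more in order of mean RPKM, the nearest gene in level, and neighbours on the chromosome. Not every gene the rule admits is named: those printed were picked by role after their values were seen, and Rock1, Rock2, Mkl1, Myocd and Oxtr lie below the leading 9 of their lists. No test was made. Alternatives were the library left out, pseudocount, filter, threshold, scaling, identifiers and transcript length. Python 3.11.15, numpy 2.4.6, pandas 2.3.3, scipy 1.17.1, Biopython 1.88 and matplotlib 3.10.9 were used.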

Additional observations from a re-analysis of the deposited data

How the results depend on the processing

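Leaving out either library gave 8 and 8 genes at 100 RPKM or more, medians of 249.3 and 249.9 RPKM, shares of 0.632% and 0.635% of summed RPKM, and ratios of 2.12 and 2.30 (Acta2 over Actg2), 3.12 and 3.20 (cytoplasmic over smooth muscle actin) and 0.470 and 0.592 (Myh9 plus Myh10 over Myh11). Either library alone must lie less than 1 SD from the mean of both. A geometric mean in place of the median gave 192 RPKM, and protein-coding identifiers alone raised the share to 0.744%. GENCODE lengths, chosen after seeing the data, gave a median of 216 RPKM and an Acta2 to Actg2 ratio of 3.23, since they change the divisor for fixed reads. The cytoplasmic to smooth muscle actin ratio was 2.43, with Actb and Actg1 left at the authors' lengths. Only the contractile genes were given GENCODE lengths, and Cnn3 over Cnn1 and Vim over Des were not recomputed. The count at 50 and 200 RPKM was 9 and 6. The count of genes at least 1.5-fold apart was 0 under each pseudocount, filter and scaling run and at 2-fold. The median log2 ratio ran from -0.0056 with equal sums to 0.0192 with a pseudocount of 0.01. No paired analysis was possible because no second group was compared. Depth limits the genes near 0, where 1 to 3 reads set a value. It also limits the ratio between the uteri for genes such as Lmod1, whose counting interval runs from -0.08 to 0.38.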

Other observations

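Among the striated muscle markers, Tnni2, the fast skeletal troponin I, stood above the rest at 15.2 and 14.4 RPKM on 39 and 41 reads. Tnnt3 (2.56 and 5.66 RPKM, 11 and 27 reads) and Tnnt1 (2.23 and 4.28 RPKM, 8 and 17 reads) were at least 1.5-fold apart between the uteri. Skeletal muscle markers such as Ckm (2.03 and 2.66 RPKM) and Mb (listed at 0) were low beside Acta1 at 78.4 and 89.4 RPKM.

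The gene nearest in level to each contractile gene was found by distance on the log2 scale over the 2 libraries, among genes with a protein-coding identifier. Lgals1 was nearest to Acta2, at 645 and 597 RPKM. Rpl31, a ribosomal protein gene, was nearest to Myh11, at 322 and 349.5 RPKM. Rps3, also ribosomal, was nearest to Tagln, at 423 and 412 RPKM. Over 2 libraries of 1 group, likeness of this kind is likeness of level.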
